A study of Mus musculus with 6 samples.

Results

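The genes of the MORC ATPase family and of the HUSH complex were examined in mouse embryonic stem (ES) cells of wild type and with a Morc3 knock-out. The members are given by their gene symbols, and no threshold on a measured value enters the rule. They are 8 of the 24054 genes in the count files, namely Morc1, Morc2a, Morc2b, Morc3 and Morc4 of the MORC family and Mphosph8, Fam208a and Pphln1, which encode the HUSH subunits MPP8, TASOR and periphilin. The study compared RNA-seq libraries of 3 Morc3 knock-out (ko) ES cell clones, KO27-1 to KO27-3, with 3 libraries of the wild-type ES cell line WT26, called p42, p43 and p56 after their titles. All cells were feeder-independent and were kept with serum and the cytokine LIF on gelatin. Each ko library is a clone that grew from a separate cell after Cas9 cutting and a short puromycin selection, so that clone differences and loss of Morc3 can only be separated as far as 3 clones allow. The labels do not explain the letter p and do not say whether the wild-type libraries came from separate cultures, so p-values measure the spread between these 6 libraries.

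MORC proteins carry a GHKL ATPase domain, which closes into a dimer when it binds ATP, and most of them also carry a CW zinc finger. The CW zinc finger of Morc3 can bind histone H3 with the mark H3K4me3. MORC proteins compact or silence chromatin, and Morc1 is known for the silencing of transposons in male germ cells. The HUSH complex silences integrated retroviruses and LINE elements by spreading the histone mark H3K9me3, which is read by the chromodomain of MPP8 and written by Setdb1, and MORC2 works together with it. Morc3 is the factor that the study examined in the silencing of endogenous retroviruses, so that the other members show how the related silencing machinery was expressed when Morc3 was disrupted.

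Sense-strand counts in genes came to between 10740618 and 14123131 per library. Of 8 ES cell markers none was called (adjusted p under 0.01) by edgeR or limma-voom in the filtered fit. Dppa5a was called by DESeq2, by edgeR with no filter and by edgeR without p56. The 8 markers summed to 6029 to 6143 CPM (counts divided by the scaled library size) in ko and 5520 to 5640 CPM in wild type. In this sum Dppa5a had means of 1369 CPM in ko and 1017 CPM in wild type, and Zfp42 had 1463 and 1316 CPM. The log2 fold change was positive for 6 of the 8 markers and negative for 2. Dppa5a and Zfp42 had an unadjusted edgeR p under 0.05, and the share of all tested genes under this value is not given here. Of the 5 fibroblast feeder markers, Thy1 was lower in ko (log2 fold change -0.86, SE 0.14, edgeR adjusted p = 0.0064). It was not called in 5 of the 6 fits that leave out a library, with an adjusted p of 0.018 to 0.058 there. The summed level was 5.21 to 5.64 CPM in ko and 8.62 to 9.59 CPM in wild type, and most of it was Thy1 (means 4.80 and 8.71 CPM). The collagen genes did not follow Thy1, with means of 0.48 and 0.31 CPM for Col1a1, 0.15 and 0.17 for Col1a2, and 0.03 and 0.02 for Col3a1. Postn had no count in any library. The 5 germ cell genes summed to 31.5 to 36.8 CPM in ko and 40.3 to 62.9 CPM in wild type. Most of this sum was Ddx4, with a mean of 20.1 CPM in ko and 33.0 CPM in wild type, while Mael was higher in ko (7.01 against 4.98 CPM). Ddx4 was highest in wild-type p56, with 27.9, 29.5 and 41.5 CPM in p42, p43 and p56. Markers of primitive endoderm, of primed epiblast and mesoderm, and of trophoblast each summed to 3.01 CPM or less in every library, and edgeR tested only Gata4 and Eomes among these 12 genes, of which neither was called by edgeR, DESeq2 or limma-voom or had an unadjusted edgeR p under 0.05. The library that stood apart was wild-type p56. Over the 422 tested genes on chromosome 14 its median log2 level was 0.36 above the mean of p42 and p43, whereas the median was -0.09, -0.08 and -0.10 in ko clones 1, 2 and 3. Mphosph8 and Fam208a lie on this chromosome, and their results are given with and without p56. In bulk RNA, fewer cells of a type and less RNA per cell cannot be told apart.

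The MORC family is marked by a short sequence of the ATP-binding site, which is shown to make visible how near the 5 genes stand to each other. Each line gives the 30 coding bases around it, 5′ to 3′ on the coding strand, in transcripts of the GENCODE annotation of GRCm38. Capitals mark the codon of the glutamate that activates the water for ATP hydrolysis and the codon of the asparagine that holds the magnesium ion.
Morc1: gctGAGttgctggacAACgcaagagatgcc
Morc2a: gctGAActggttgatAATgcaagagatgct
Morc2b: gctGAActgattgatAATgcgagggatgct
Morc3: gctGAGttaatagatAATgcttatgatcct
Morc4: gcgGAGctgctagatAATgctgtagatcca
The glutamate is residue 33 in Morc1, 35 in Morc2a, Morc2b and Morc3, and 56 in Morc4. Within these 30 bases, Morc2a and Morc2b had 27 in common, Morc1 and Morc2a had 23, Morc3 and Morc4 had 22, and the other 7 pairs had 19 to 21. The stretch is exonic and coding in all 5 genes. In Morc1 (chr16:48437306-48442411, plus strand), Morc2a (chr11:3658703-3661835, plus strand), Morc3 (chr16:93841431-93844210, plus strand) and Morc4 (chrX:139864611-139871082, minus strand) it runs from exon 2 into exon 3 across an intron. The intron falls after base 23 of the stretch in Morc1 and Morc2a and after base 13 in Morc3 and Morc4. Morc2b (chr17:33138668-33138697, minus strand) has the stretch in 1 piece, since the transcript used here has 1 exon.

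Over the whole coding sequences Morc2a and Morc2b were again the most alike pair. Morc2a and Morc2b were 80.01% identical over 3056 aligned bases, and the other 9 pairs reached between 60.6% and 64.3%. The longest identical coding run was 38 bases in Morc2a and Morc2b and at most 14 bases in any other pair. No exact run of 50 bases, the length of a read, was shared between the transcripts of any 2 of the 8 members, so that exact reads of 1 member do not also match another.

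Per length, Morc3 was the most abundant of the 8 transcripts in wild-type cells. Levels between genes are compared as CPM per kb of merged exons. The wild-type means were 52.2 ± 2.99 for Morc3, 38.8 ± 7.88 for Mphosph8, 25.1 ± 5.82 for Fam208a, 23.2 ± 1.48 for Morc1, 19.5 ± 0.70 for Morc2a and 8.93 ± 0.99 for Pphln1 (SD, n = 3). Morc4 followed with 0.446 ± 0.027 and Morc2b with 0.107 ± 0.050 CPM per kb (SD, n = 3). Only Fam208a and Morc1 overlapped among neighbours in this order, with Fam208a above Morc1 in p56 and below it in p42 and p43. The ranks of Mphosph8 and Fam208a rest on the length used. Per kb of coding sequence Fam208a came to 76.2 ± 17.6 and Mphosph8 to 54.0 ± 11.0 CPM (SD, n = 3), so that Fam208a stood second, while Morc3 stayed first with 100.4 ± 5.75.

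In Morc3 ko cells the order at the top was different. Morc1 led with 33.2 ± 1.83 CPM per kb of merged exons, next to Mphosph8 with 32.3 ± 1.92 (SD, n = 3), and their ranges overlapped. Fam208a followed with 22.3 ± 0.74, Morc3 with 21.5 ± 6.22 and Morc2a with 20.2 ± 1.28 CPM per kb (SD, n = 3), and each of these ranges overlapped with the next. Pphln1 had 7.86 ± 0.24, Morc4 had 0.426 ± 0.180 and Morc2b had 0.110 ± 0.078 CPM per kb (SD, n = 3). Morc1 also led by the length of the longest transcript and by coding length.

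**Figure D1:**
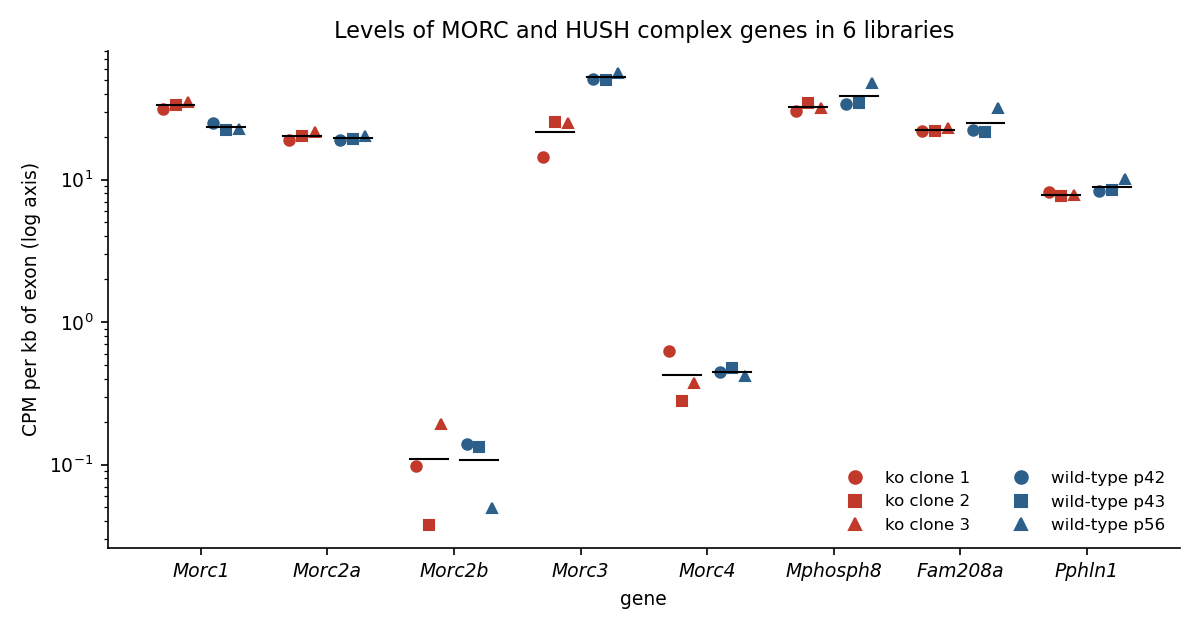
Levels of the 8 genes in CPM per kb of merged exons on a log axis, with 1 point for each of the 3 ko clones (red) and 3 wild-type libraries (blue) and a black bar for each group mean. Morc1 lies higher and Morc3 lower in all 3 ko clones, wild-type p56 lies above p42 and p43 for Mphosph8, Fam208a and Pphln1, and Morc4 and Morc2b lie under 1 CPM per kb.

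To find which members changed in Morc3 ko cells, the counts of all genes were fitted together. Of the 8 members 7 passed the filter on low counts, and Morc2b did not. At an adjusted p under 0.01 2 of these 7 passed edgeR's quasi-likelihood test, Morc1 higher and Morc3 lower in ko. Morc3 is the gene that the study disrupted, so its call says nothing about the other members. Over all 12222 genes tested 1.28% were called, 0.859% higher and 0.417% lower. The ko and wild-type libraries did not overlap for Morc1, Morc3 and Pphln1, against 19.9% of all tested genes without overlap. The median log2 fold change of the 7 members was -0.17, and that of all tested genes was -0.00010. The median of the members is the value of Fam208a on chromosome 14, which turned to 0.04 without wild-type p56. Over the tested genes on chromosome 14 the median was -0.24.

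**Figure D2:**
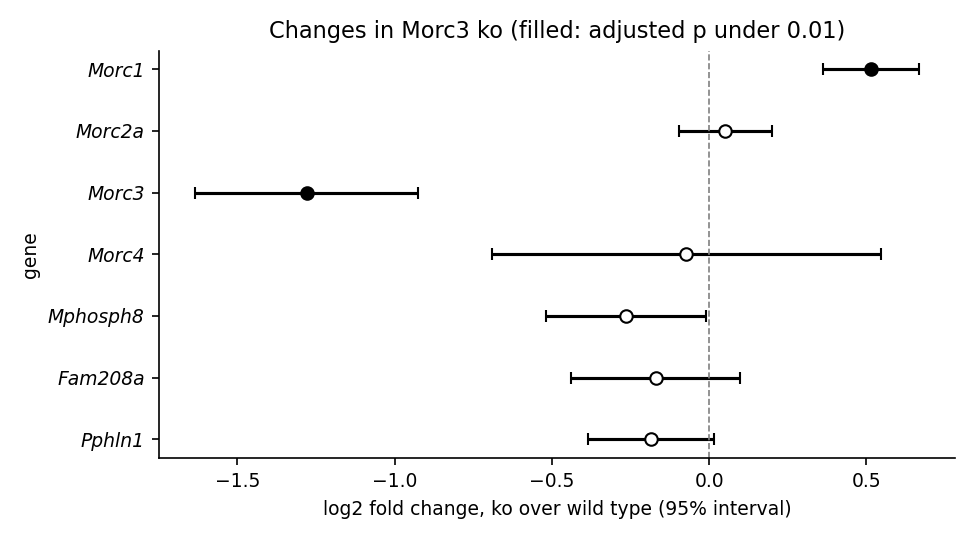
Log2 fold change of ko over wild type for the 7 members that were tested, with 95% intervals from edgeR's quasi-likelihood fit (3 libraries in each group), filled where the adjusted p was under 0.01. Morc1 at 0.51 and Morc3 at -1.28 are filled, and the interval of Morc4 from -0.69 to 0.55 is the widest.

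Morc3 (chromosome 16, 93832121 to 93876077, GRCm38, plus strand), the ATPase that the study disrupted, kept reads in every ko clone. It had 842, 1562 and 1483 counts in ko clones 1, 2 and 3, against 3822, 3885 and 3914 counts in p42, p43 and p56 of the wild type. All ko clones lay below all wild-type libraries, and clone 1 lay below the other clones. On the log2 scale ko differed from wild type by -1.28 (SE 0.16, edgeR adjusted p = 8.4e-04), which is 0.412 of the wild-type level with a 95% interval of 0.322 to 0.526. The robust fit no longer called it, at an adjusted p of 0.018. Clone 1 reached 0.275 of the wild-type level, clone 2 reached 0.487 and clone 3 reached 0.475.

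Morc3 varied more between the ko clones than the other members at a like level. The coefficient of variation of Morc3 was 28.9% over the ko clones and 5.72% over the wild-type libraries (n = 3 each). For Morc1, Morc2a, Mphosph8, Fam208a and Pphln1 it lay between 3.05% and 6.33% over the ko clones. Clone 1 had 0.564 of the Morc3 level of clone 2, with an exact 95% counting interval of 0.518 to 0.614, while clone 3 had 0.976 of it, with an interval of 0.908 to 1.05. Such intervals cover counting error only. The counts are sums over the whole gene, so that the site of the Cas9 cut, the remaining exons and the protein were not analysed here. For the protein, the study reported loss of Morc3 in its knock-out clones by western blot.

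Morc1 (chromosome 16, 48431237 to 48630905, plus strand), the germ cell transposon silencer of the family, was higher in Morc3 ko cells. Ko clones 1, 2 and 3 had 202, 216 and 226 CPM, and p42, p43 and p56 had 161, 144 and 146 CPM. The lowest ko clone lay above the highest wild-type library. The rise was 0.51 on the log2 scale (SE 0.07, edgeR adjusted p = 0.0015), a ratio of 1.43 with a 95% interval of 1.29 to 1.59. The call was lost without ko clone 2 (adjusted p = 0.0165) or ko clone 3 (adjusted p = 0.0199), with a log2 fold change of at least 0.48 in all 17 settings. Of the genes that lie on chromosome 16, 362 were tested, and their median differed from p42 and p43 by 0.03 to 0.04 in the ko clones on the log2 scale, where Morc1 itself differed by 0.41, 0.50 and 0.57. Of the 4 germ cell genes tested none was called by edgeR with the filter or by limma-voom. At an unadjusted edgeR p under 0.05 there were 3 of the 4, and the share of all tested genes under this value is not given here. These 3 did not share a direction. Mael was higher in ko at 0.50 (SE 0.20) and Sycp3 was lower at -0.57 (SE 0.18) on the log2 scale. Ddx4, the germ cell RNA helicase, was at -0.71 on the log2 scale (SE 0.14, edgeR adjusted p = 0.018) and was called by DESeq2, by edgeR with no filter (adjusted p = 0.0010) and by edgeR without p42 (0.0098) or p56 (0.0012). The levels of these genes were read beside Morc1 only, and a link to it was not tested.

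Morc2a (chromosome 11, 3649189 to 3690477, plus strand), the mouse counterpart of the HUSH partner MORC2, was not called. Its CPM was 121, 131 and 137 in ko clones 1, 2 and 3, as against 122, 124 and 130.3 in p42, p43 and p56, and the groups overlapped. The change was 0.05 on the log2 scale (SE 0.07, edgeR adjusted p = 0.80) with a 95% interval of -0.10 to 0.20. Over the 17 settings it lay between 0.01 and 0.10. The interval reached from 0.935 to 1.15 times the wild-type level.

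Morc2b and Morc4 had the lowest levels of the 8 members. Morc2b (chromosome 17, 33135588 to 33150499, minus strand), the near copy of Morc2a, had 5, 2 and 10 counts in ko clones 1, 2 and 3 and 9, 9 and 3 counts in p42, p43 and p56. Its ratio of ko over wild type from the 17 and 21 summed counts was 1.00, with an exact 95% counting interval of 0.496 to 1.99. Morc4 (chromosome X, 139821635 to 139871692, minus strand), another member with a CW zinc finger, had 41, 19 and 25 counts in the ko clones and 37, 41 and 33 counts in the wild-type libraries. The wild-type values lay inside the range of the ko values. Morc4 had a log2 difference of -0.07 (SE 0.28, edgeR adjusted p = 0.95), and it turned to 0.16 without ko clone 2 and to 0.01 without ko clone 3. The 95% interval of Morc4 leaves room for 0.619 to 1.46 times the wild-type level, and changes within the intervals of these 2 genes were not detectable here. The interval of Morc2b covers counting error only and leaves out the spread between libraries. In the edgeR fit with no filter Morc2b had a log2 fold change of 0.0033 with an SE of 0.59. Among the ko clones, Morc4 in clone 1 was 2.26 times that in clone 2, with an exact 95% counting interval of 1.28 to 4.12.

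The makeup of the MORC transcripts differed between ko and wild type in all libraries. The CPM per kb of merged exons, summed over the 5 genes, was 65.1, 79.5 and 81.6 in ko clones 1, 2 and 3, next to 95.4, 92.2 and 98.9 in p42, p43 and p56. Morc3 held 22.0% to 32.0% of this sum in ko and 53.4% to 56.3% in wild type. Morc1 held 42.04% to 47.9% in ko and 22.7% to 26.1% in wild type, and Morc2a held 25.6% to 29.0% and 19.9% to 20.9%. The sum contains the disrupted gene, so a lower Morc3 raises the shares of the other genes even at unchanged levels. Morc2a itself had a mean of 20.2 CPM per kb in ko and 19.5 in wild type. Morc4 stayed under 0.97% and Morc2b under 0.24% in every library.

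**Figure D3:**
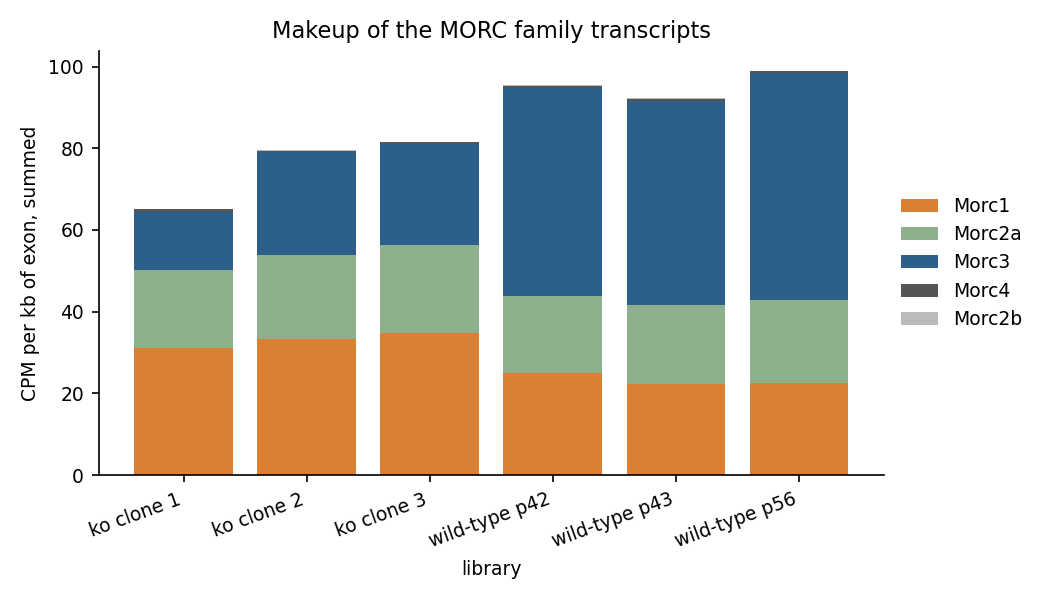
Summed CPM per kb of merged exons of the 5 MORC genes in each of the 6 libraries, split by gene. Morc3 is the largest part in the wild-type libraries (53.4% to 56.3%) and Morc1 in the ko clones (42.04% to 47.9%), and Morc4 and Morc2b are hardly visible.

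Ratios of 2 members within a library do not depend on the scaling between libraries. The level of Morc1 per kb was 2.18, 1.32 and 1.41 times that of Morc3 in ko clones 1, 2 and 3 and 0.489, 0.444 and 0.404 times in p42, p43 and p56. The log2 ratio was 1.84 higher in ko. Morc2a to Morc3 was 1.38 higher and Morc4 to Morc3 was 1.18 higher in ko on the log2 scale. The last of these varied with the clone left out and was 0.59 without ko clone 1 and 1.59 without ko clone 2. In these 3 ratios the groups did not overlap, and the two-sided exact permutation test gave p = 0.1, which is the smallest p that 3 against 3 libraries can give, and 0.2 after adjustment over the 6 ratios computed. These 3 ratios share as their divisor Morc3, the disrupted gene, which was itself at -1.28 on the log2 scale. The ratio to Morc3 of any gene that kept its level was therefore bound to be higher in ko. Morc2a and Morc4 by themselves differed by 0.05 and -0.07, so the test of their ratios says nothing about a change of these genes.

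The HUSH genes were followed next. Mphosph8 (chromosome 14, 56668235 to 56697430, plus strand), whose product MPP8 binds H3K9me3, was at 109, 123 and 115 CPM in ko clones 1, 2 and 3, as against 121, 125 and 172 CPM in p42, p43 and p56. The groups overlapped, and p56 was the highest library. Ko minus wild type was -0.26 (SE 0.12) on the log2 scale, with an unadjusted p of 0.044 and an adjusted p of 0.33 by edgeR. Without p56 it was -0.08, and with the chromosome median subtracted from the chromosome 14 genes of each library it was -0.04.

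Fam208a (chromosome 14, 27423674 to 27483555, plus strand), which encodes the HUSH scaffold TASOR, had 297, 299.7 and 316 CPM in the ko clones and 301, 292 and 434 CPM in p42, p43 and p56. The ko clones lay near p42 and p43, and p56 lay above all of them. Ko minus wild type was -0.17 on the log2 scale (SE 0.12, edgeR adjusted p = 0.61) with a 95% interval of -0.44 to 0.10. It turned to 0.04 without p56 and to 0.06 with the chromosome 14 median subtracted.

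Pphln1 (chromosome 15, 93398345 to 93491913, plus strand), which encodes periphilin, had 37.0, 35.0 and 35.2 CPM in the ko clones and 37.9, 38.2 and 45.8 CPM in the wild-type libraries. All ko clones lay below all wild-type libraries, though by little for p42 and p43. Ko minus wild type was -0.18 on the log2 scale (SE 0.09, edgeR adjusted p = 0.40) with a 95% interval of -0.39 to 0.02, and it was -0.09 without p56. The 3 HUSH genes thus had no call, by edgeR, DESeq2 or limma-voom. Mphosph8 alone had an unadjusted edgeR p under 0.05, and the share of all tested genes under this value is not given here.

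All 3 HUSH genes were higher in p56 than in the other wild-type libraries. The ratio of p56 to p42 and p43 together was 1.46 for Fam208a (exact 95% counting interval 1.41 to 1.51), 1.40 for Mphosph8 (1.32 to 1.47) and 1.20 for Pphln1 (1.09 to 1.33). These intervals cover counting error only and leave out the further spread between libraries. For Fam208a and Mphosph8 the difference was 0.55 and 0.48 on the log2 scale, beside the chromosome 14 median of 0.36. Of the 422 tested genes on chromosome 14, 17.8% were raised more than Fam208a and 26.1% more than Mphosph8 in p56. Of all tested genes, including those that were lower in p56, these shares were 3.85% and 5.20%. Pphln1 differed by 0.27, where the median of the 478 tested genes on chromosome 15 was -0.05. Of the tested genes on chromosome 15, 11.3% were raised more than Pphln1 in p56, and of all tested genes 13.8%. The part of the chromosome 14 shift in the values of Fam208a and Mphosph8 was not tested beyond the subtraction of its median.

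**Figure D4:**
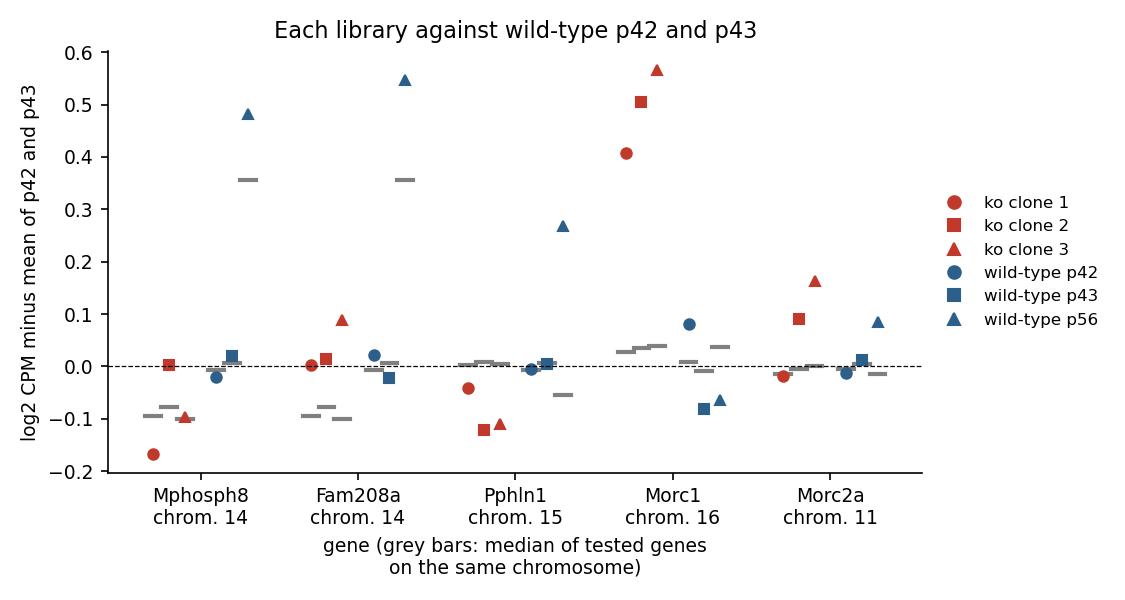
Log2 CPM of 5 members in each library minus the mean of wild-type p42 and p43, with grey bars for the median of all tested genes on the same chromosome. Wild-type p56 stands at 0.48 for Mphosph8 and 0.55 for Fam208a with the chromosome 14 median at 0.36, and the 3 ko clones stand between 0.41 and 0.57 for Morc1 with chromosome 16 medians near 0.

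The proportions of the HUSH genes within a library overlapped between ko and wild type. Fam208a to Mphosph8 per kb lay between 0.641 and 0.724 in ko and between 0.618 and 0.665 in wild type. The log2 ratio was 0.10 higher in ko (two-sided exact permutation p = 0.3, adjusted over 6 ratios 0.45). Pphln1 to Mphosph8 differed by 0.07 (exact permutation p = 0.5, adjusted 0.6) and Fam208a to Pphln1 by 0.03 (exact permutation p = 0.8, adjusted 0.8), and in all 3 ratios the groups overlapped. Fam208a and Mphosph8 share a chromosome, so that a shift of chromosome 14 as a whole leaves their ratio as it was.

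Strand was part of how the HUSH genes were counted. Mphosph8 overlaps the opposite-strand noncoding gene Gm16973, and Fam208a overlaps the opposite-strand gene Ccdc66. Counting without strand left 14.7% fewer counts for Mphosph8 and 3.03% fewer for Fam208a, as STAR gives a read that overlaps both genes to neither. Opposite-strand reads made up 1.77% of the stranded counts of Mphosph8 and 0.661% of those of Fam208a, and at most 0.128% for Morc1, Morc2a, Morc3 and Pphln1. No member gained or lost its call when strand was ignored.

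Genes that act with HUSH were examined as a list of 10, of which 9 were tested and Zfp638 was not analysed here. By edgeR 1 was called lower and none higher, where 0.417% of all tested genes were called lower and 0.859% higher. The median log2 fold change of the list was 0.09. Fam208b, the TASOR paralog, was the called gene. It had 76.7, 78.5 and 91.4 CPM in ko clones 1, 2 and 3 and 121, 116 and 152 CPM in p42, p43 and p56, without overlap. Fam208b fell by 0.66 on the log2 scale (SE 0.11, edgeR adjusted p = 0.0052). The call was lost without ko clone 1 (adjusted p = 0.041), ko clone 2 (0.059) or ko clone 3 (0.017), and the fold change stayed between -0.74 and -0.53. Fam208b overlaps the opposite-strand gene Gdi2, and 2.55% of its stranded counts were on the opposite strand.

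The largest change of this list was that of Atf7ip, the partner that stabilizes Setdb1. It had 29.2, 24.1 and 24.8 CPM in the ko clones and 17.6, 17.4 and 12.1 CPM in the wild-type libraries, without overlap and with p56 lowest. Its change of 0.73 on the log2 scale (SE 0.14, edgeR adjusted p = 0.017) did not pass. DESeq2 gave an adjusted p of 3.5e-04 and edgeR with no filter called it as well, and without p56 edgeR called it at 0.0014 with 0.57. Its relative Atf7ip2 was at 0.58 (SE 0.14, edgeR adjusted p = 0.054). Of the remaining 6 genes 2810474O19Rik, a Setdb1 partner, had a log2 fold change of 0.26 (SE 0.07, adjusted p = 0.073 by edgeR), with 183, 206 and 212 CPM in the ko clones above 174, 164 and 162 CPM in the wild-type libraries. The other 5 were the methyltransferase Setdb1 with -0.07 (SE 0.08, edgeR adjusted p = 0.75), the corepressor Trim28 with 0.12 (SE 0.06, edgeR adjusted p = 0.43), and the RNA decay factors Skiv2l2, Zcchc8 and Rbm7 with 0.07, 0.04 and 0.09.

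Of 10 genes that act with Morc3, such as the histone H3.3 chaperones Daxx and Atrx, the H3.3 genes, the SUMO genes and Pml, all were tested and none was called by edgeR in the filtered fit. At an unadjusted p under 0.05 there were 3, and the share of all tested genes under this value is not given here. DESeq2 called Pml and Atrx, where it called 1.45% of all genes. With no filter edgeR called Pml, where it called 1.63% of all genes, and limma-voom called none of the 10. The median log2 fold change was 0.10. The largest was that of Pml, which builds the nuclear bodies in which Morc3 can be found. Pml had 49.0, 47.9 and 49.0 CPM in the ko clones and 36.1, 36.5 and 27.8 CPM in p42, p43 and p56, without overlap. Its log2 fold change was 0.54 (SE 0.10, edgeR adjusted p = 0.015), and without p56 it was called at 0.0010 with 0.42. Atrx had 0.31 (SE 0.07, edgeR adjusted p = 0.047), and Daxx had -0.02 (SE 0.07, edgeR adjusted p = 0.95).

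Other proteins with the same domains served as a wider comparison. Of 11 other GHKL ATPase genes, among them the Hsp90 chaperones and the type II topoisomerases, none was called by edgeR, DESeq2 or limma-voom. Of the 11, 1 had an unadjusted edgeR p under 0.05, and the share of all tested genes under this value is not given here. The median log2 fold change of the 11 was 0.02 and the largest was -0.30 (SE 0.12, edgeR adjusted p = 0.26) for Top2b. Top2b also lies on chromosome 14, was highest in p56 and was at -0.16 without p56. Smchd1, the X inactivation factor with a MORC-like ATPase, had 0.0022 (SE 0.06, edgeR adjusted p = 0.99). Of 3 other genes with a CW zinc finger 2 were tested and Zcwpw2 was not analysed here. None was called by edgeR, DESeq2 or limma-voom. The larger change was that of Zcwpw1 with -0.38 (SE 0.15, edgeR unadjusted p = 0.026, adjusted p = 0.26). Zcwpw1 also had its highest level in p56, and without p56 it was at -0.18.

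**Figure D5:**
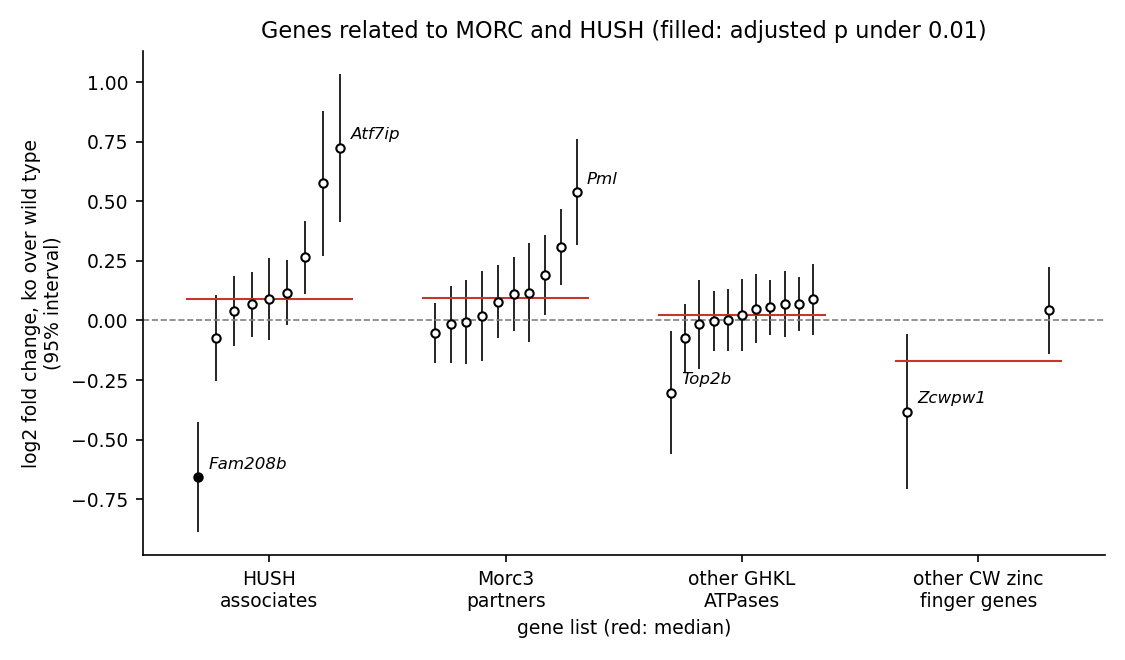
Log2 fold change of ko over wild type with 95% intervals for the tested genes of 4 lists, filled where the edgeR adjusted p was under 0.01 and with a red line for each list's median. Fam208b at -0.66 is the filled point, Atf7ip at 0.73 and Pml at 0.54 are open, and the 11 GHKL ATPase genes lie between -0.30 and 0.09.

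Genes with a pattern over the 6 libraries like that of a member were sought by the root mean square difference of the centred log2 CPM, over 8395 other genes with a mean of at least 10 CPM. For Fam208a the nearest genes were Ngly1, Mzt1, Ska3, 2700060E02Rik and Ccnd3, with differences of 0.04, and for Mphosph8 they were Vdac2, Wdhd1, Gtf2f2, Tm9sf1 and Uchl3, with differences of 0.03. All of these but Ccnd3 lie on chromosome 14. Among the nearest 100 genes 71 lay on chromosome 14 for Fam208a and 78 for Mphosph8, where 3.53% of the compared genes do. For Morc1 the nearest included Hltf (0.03), 9830147E19Rik (0.05), Etv5 (0.06) and Pramef12 (0.07), which lie on 4 different chromosomes, with Etv5 on chromosome 16 like Morc1. Of the nearest 100 genes 6 were on chromosome 16, where 3.20% of the compared genes lie. For Morc3 the nearest were 2610305D13Rik (0.15), Gm13247 (0.27), Sh3bgrl (0.29), Magohb (0.31) and Fam111a (0.33). No compared gene came as near to Morc3 as the fifth gene came to the other 3 members.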

How the data were processed

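The authors deposited whole-number read counts per gene made with STAR (GeneCounts) on mm10 per the labels, with an annotation not given in the sources used here. Libraries were rRNA-depleted, strand-specific and sequenced as 50 bp paired-end reads. The deposited sense-strand counts were used, and the 4 summary lines (36.2% to 37.7% of reads) were left out. The members and gene lists were chosen with earlier results of these data known. Genes were filtered (minimum count 10, minimum total 15), TMM-scaled and tested with edgeR 4.0.16 (quasi-likelihood, group only, Benjamini-Hochberg, called at an adjusted p under 0.01), and the fit was tested on simulated data. SE is the log2 fold change divided by the root of F. Alternatives were DESeq2 1.42.0, limma-voom (limma 3.58.1), other scalings, filters and strand settings, and each library left out. Exact permutation tests used scipy 1.17.1. Members are all given, and in the other lists every called gene and the gene with the largest change are named; further genes were named after their values were seen. Gene positions are from RefSeq (GRCm38.p6), lengths and sequences from GENCODE (GRCm38). Symbols matched RefSeq directly for 22542 genes, by an older symbol for 1352, and not for 160. No 2 libraries agreed within counting noise (lowest chi-square 2.03 per degree of freedom, for p42 against p43). Wild-type p56 had 9.81 against p42 and 11.5 against p43. The study itself used DESeq2. A gene near Morc1 in pattern is not reported here.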

Additional observations from a re-analysis of the deposited data

How the results depend on the processing

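Morc1 kept its direction in all settings. Its call was lost when ko clone 2 or 3 was left out, and over the 6 fits that leave out a library its log2 fold change was 0.48 to 0.57. Morc3 lost its call in the robust fit (-1.28, adjusted p = 0.018), and the cause was not tested. Its values lay between -1.42 and -1.05 in the fits that leave out a library. Fam208a turned to 0.061 with the chromosome 14 median subtracted and ranged from -0.27 to 0.037 in them, where the positive value is that without p56. Morc4 ranged from -0.45 to 0.16, with a positive value without ko clone 2 or 3. Of the 7 members, 2 were called in the main analysis, 1 in the robust fit and 1 to 2 with a library left out. Of the HUSH associates 1 was called in the main analysis, 2 by DESeq2 and with no filter (Atf7ip with Fam208b), and 0 to 3 with a library left out, the 3 being without p56, where 385 of 12315 genes were called. Of the Morc3 partners 0 were called by the filtered edgeR fit, 1 (Pml) with no filter, 2 by DESeq2 and 0 to 2 with a library left out, the 2 again without p56. Over all genes 1.63% were called with no filter, 1.45% by DESeq2 and 3.13% without p56. Pphln1 to Mphosph8 ranged from -0.0037 to 0.13 and Fam208a to Pphln1 from -0.027 to 0.13 in the log2 ratio with a library left out. Morc4 to Morc3 ranged from 0.59 to 1.59. Gene length cancels in these differences, and the coding length used for the levels was chosen after seeing the data. The coding length of the RefSeq protein was not run. No paired analysis was possible because the groups share no replicate numbers. Depth limits Morc2b and Morc4, where 3 counts correspond to 0.210 to 0.277 CPM.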
